A study of Mus musculus with 2 samples.

Results

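The cells described here are splenic dendritic cells chosen by genes known from plasmacytoid dendritic cells (pDC) and from a branch of type 2 conventional dendritic cells (cDC2), and they go under the working name of transitional dendritic cells. They were chosen by raw UMI counts, where a UMI (unique molecular identifier) stands for 1 captured transcript. A member had at least 1 UMI of Tcf4 and at least 3 UMIs summed over Siglech, Cd209d, Cd209e and Lag3. It had no UMI of Ccr7, Xcr1, Mki67, Top2a, Cd79a or Nkg7, genes of mature dendritic cells, cDC1, dividing cells, B cells and cytotoxic lymphocytes. The rule does not require both sides in 1 barcode: Siglech was at 0 in 55 L-cDC and 42 M-cDC members, and Cd209a, Cd209d and Cd209e were all at 0 in 13 L-cDC and 8 M-cDC members. Of the 9934 barcodes kept with at least 500 genes and at most 10% mitochondrial UMIs, 173 were members, 107 of 4086 in the L-cDC library and 66 of 5848 in the M-cDC library. All cells came from spleens of naive mice aged 7 to 9 weeks that carried Il7r-cre and Rosa26-lsl-tdTomato, were enriched for CD11c with magnetic beads and were then sorted by tdTomato. L-cDC are the tdTomato-positive cells and M-cDC the tdTomato-negative cells. The Cre is driven from Il7r, so the reporter marks any cell that expressed Il7r itself or descends from a cell that did, and Il7r levels are therefore not independent of the sort. Each group had 1 library, so differences between L-cDC and M-cDC have no replicate check, no test was made, and the 95% intervals given in parentheses cover counting error only.

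Dendritic cells are grouped into pDC, which secrete type I interferon when they meet viral nucleic acids, and conventional dendritic cells, which present antigen, with cDC1 directed mainly at CD8 T cells and cDC2 at CD4 T cells. Tcf4 encodes E2-2, the E protein transcription factor that pDC need for their identity, and Id2 encodes an inhibitor of E proteins that conventional dendritic cells express. Transitional dendritic cells lie between pDC and cDC2 in their gene expression and have been described in mouse and human.

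Siglech encodes a sialic acid-binding lectin of pDC, and Cd209a, Cd209d and Cd209e encode C-type lectins of the DC-SIGN family. The 250 bases before the start of each of these 4 genes are shown because these genes stand for the pDC and cDC2 sides of the cells described, and because E proteins such as E2-2 bind the E-box CANNTG. The sequences are from RefSeq on GRCm38.p6, written 5′ to 3′ on the gene's strand, with each E-box in capitals. They lie at chr7:55767934-55768183 on the plus strand for Siglech, and on the minus strand at chr8:3878500-3878749 for Cd209d, chr8:3854287-3854536 for Cd209e and chr8:3748985-3749234 for Cd209a.
Siglech: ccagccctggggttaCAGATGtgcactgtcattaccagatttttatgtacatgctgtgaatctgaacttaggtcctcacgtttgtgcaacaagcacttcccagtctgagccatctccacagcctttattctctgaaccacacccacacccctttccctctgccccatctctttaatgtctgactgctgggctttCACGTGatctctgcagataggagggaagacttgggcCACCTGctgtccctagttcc
Cd209d: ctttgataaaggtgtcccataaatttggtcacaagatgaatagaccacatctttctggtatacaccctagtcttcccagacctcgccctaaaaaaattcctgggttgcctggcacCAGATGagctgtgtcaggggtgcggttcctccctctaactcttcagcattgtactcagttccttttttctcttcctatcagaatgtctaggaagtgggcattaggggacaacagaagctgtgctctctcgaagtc
Cd209e: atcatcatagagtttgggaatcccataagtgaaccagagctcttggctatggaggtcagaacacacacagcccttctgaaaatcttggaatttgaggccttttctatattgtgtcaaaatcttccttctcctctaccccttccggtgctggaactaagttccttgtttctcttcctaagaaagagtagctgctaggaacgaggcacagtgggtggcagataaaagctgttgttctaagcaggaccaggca
Cd209a: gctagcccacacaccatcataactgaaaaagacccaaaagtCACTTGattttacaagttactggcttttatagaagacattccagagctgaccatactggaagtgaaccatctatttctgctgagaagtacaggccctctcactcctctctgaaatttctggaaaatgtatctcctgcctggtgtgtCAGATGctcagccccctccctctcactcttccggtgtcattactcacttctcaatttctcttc
Siglech held 3 E-boxes in this window, Cd209a 2, Cd209d 1 and Cd209e 0. An E-box was present in 66.2% of all 32817 RefSeq windows of this length, so its presence sets these genes little apart. The form CACCTG or its complement CAGGTG was found in 17.2% of all windows and, of these 4, in Siglech only, while CAGCTG was found in 13.0% of all windows and in none of the 4. CANNTG reads the same on both strands, and the other forms are part of it. The windows of Cd209d and Cd209e, neighbours on chromosome 8, were identical at 57.2% of aligned positions, against 45.6% for Cd209a and Cd209d. As these lectins are paralogs, how reads were split among them cannot be checked in the deposited counts.

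Members made up 2.62% (2.15 to 3.16) of kept L-cDC barcodes and 1.13% (0.874 to 1.43) of kept M-cDC barcodes, a ratio of 2.32. Resting cDC2, set by Sirpa and a sum over Clec4a4, Cd4, Ffar2, Cd209a and Mgl2, numbered 82 in L-cDC, 2.01% of its kept barcodes, and 532 in M-cDC, 9.10% of its kept barcodes. Counted against these cells alone, members were 56.6% (49.2 to 63.8) of members plus resting cDC2 in L-cDC and 11% (8.64 to 13.8) in M-cDC. Resting cDC1, set by Xcr1 and Clec9a, numbered 131 in L-cDC (3.21%) and 482 in M-cDC (8.24%). These are shares of barcodes after the bead enrichment and the sort, not of the spleen. Members had a median of 13071 UMIs in L-cDC and 10997 in M-cDC. Resting cDC2 were shallower, at medians of 8279 and 7370 UMIs in L-cDC and M-cDC, and resting cDC1 deeper, at 15810 and 13802. The deposited libraries held 40170515 UMIs over 4939 barcodes (L-cDC) and 52973960 UMIs over 6674 barcodes (M-cDC). They shared 6 barcodes, none of them a member. A Scrublet score of 0.25 or more, the sign of a possible doublet, was found in 2 of the 107 members of L-cDC and in none of the 66 members of M-cDC, against 4.87% of kept L-cDC and 4.72% of kept M-cDC barcodes.

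**Figure D1:**
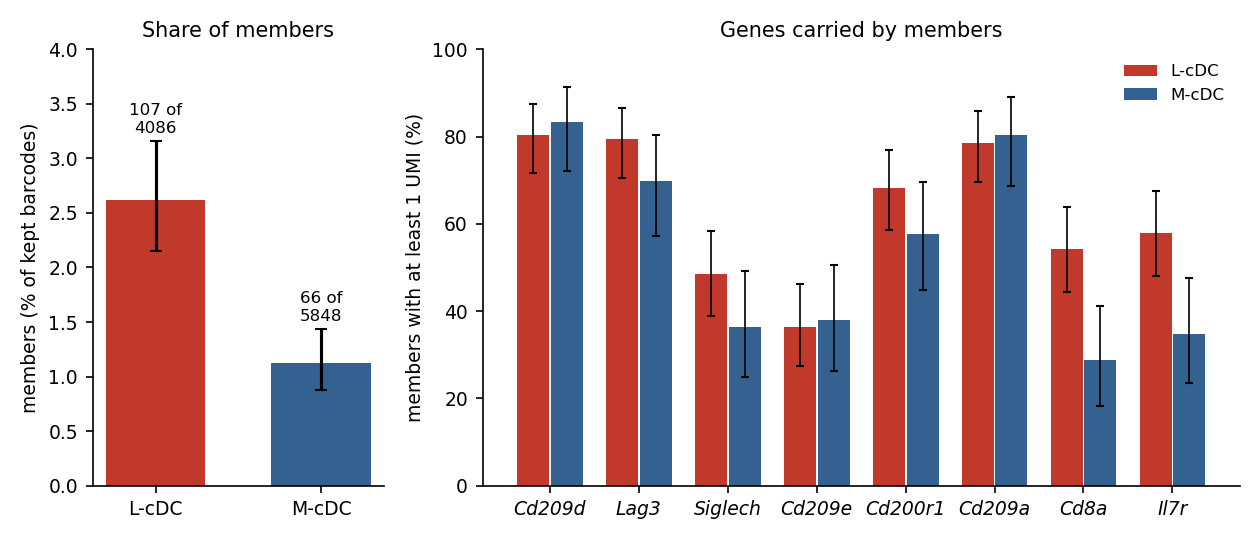
Left, members as a percentage of kept barcodes in L-cDC and M-cDC; right, the percentage of members with at least 1 UMI of each of 8 genes, with bars for L-cDC and M-cDC and exact Clopper-Pearson 95% intervals as lines. Members were 2.62% of L-cDC and 1.13% of M-cDC barcodes, Cd209d was carried by 80.4% of L-cDC and 83.3% of M-cDC members, and Cd8a by 54.2% and 28.8%.

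Among the 4 genes of which members had to carry 3 UMIs, the lectin Cd209d contributed most. It supplied 70.8% of the summed UMIs in L-cDC members and 78.7% in M-cDC members. A UMI of Cd209d was found in 86 of 107 L-cDC members and 55 of 66 M-cDC members. Lag3, an inhibitory receptor that binds MHC class II and is also found on pDC, was carried by 85 L-cDC and 46 M-cDC members. Siglech was found in 52 L-cDC members (48.6%) and 24 M-cDC members (36.4%), and Cd209e in 39 (36.4%) and 25 (37.9%). Most members therefore entered through Cd209d, which alone reached 3 UMIs in 74 L-cDC and 50 M-cDC members, and fewer than 1 in 2 carried Siglech in either library. In resting cDC2, a UMI of Siglech was found in 3 of 82 cells of L-cDC (3.66%) and 7 of 532 cells of M-cDC (1.32%). The gate of resting cDC2 allowed at most 2 UMIs over the 4 genes, so it held these shares low and they are no measure of background. With every cell thinned to 3000 UMIs, which takes out the difference in depth, 28.0% of L-cDC members and 15.2% of M-cDC members had Siglech.

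The 4 genes overlapped within cells. All 4 were found in 12 L-cDC and 8 M-cDC members, 3 of them in 38 and 15, 2 in 43 and 30, and a single gene in 14 and 13. Siglech and Cd209d were found together in 35 L-cDC and 16 M-cDC members, and Siglech with any of Cd209a, Cd209d and Cd209e in 40 (37.4%) and 18 (27.3%). Tcf4, which every member had to carry, was carried as well by 54.9% of the resting cDC2 of L-cDC and 48.3% of those of M-cDC. The sum over the 4 genes had a median of 12 UMIs in L-cDC members and 10 in M-cDC members, with highest values of 138 and 72. Levels are given in CPM, the UMIs of a gene per 1000000 UMIs of the summed cells. Tcf4 stood at 888 CPM over all L-cDC members and at 816 CPM over all M-cDC members. Cd209d stood at 1385 and 1279 CPM, Siglech at 157 and 50.7 CPM, Cd209e at 220 and 140 CPM, and Lag3 at 194 and 156 CPM. These levels describe the choice of cells and support nothing further.

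The requirement of Tcf4 removed few cells, and the excluded genes removed more. Among barcodes with a sum of 3 and the excluded genes at 0, 107 L-cDC and 66 M-cDC barcodes carried Tcf4, while 5 and 10 had it at 0. Before the excluded genes were applied, Tcf4 and the sum of 3 were met by 198 L-cDC and 99 M-cDC barcodes. Of the 198 and 99, 91 L-cDC and 33 M-cDC barcodes carried an excluded gene, most often Ccr7 (61 and 18) and Mki67 (28 and 10). Just inside the threshold, at a sum of 3, 17 L-cDC and 13 M-cDC members had Bst2 at 287 and 343 CPM and Cd209a at 68.1 and 595 CPM. Just outside it, 19 L-cDC and 17 M-cDC barcodes with Tcf4, none of the excluded genes and a sum of 2 had Bst2 at 253 and 339 CPM and Cd209a at 202 and 426 CPM. The cells on either side of the threshold lay close together in Bst2 but not in Cd209a. Members with a sum of 10 or more (60 in L-cDC, 34 in M-cDC) had Bst2 at 713 and 766 CPM, and barcodes with Tcf4, none of the excluded genes and a sum of 0 (90 and 348) had it at 100 and 108 CPM. The levels between did not rise evenly: Bst2 stood at 406 and 101 CPM at a sum of 4 (9 L-cDC and 6 M-cDC members) and at 284 and 377 CPM at a sum of 5 to 9 (21 and 13 members).

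The name was set beside genes that the rule did not use. Cd200r1, an inhibitory receptor and the marker of these cells outside the rule, stood at 157 CPM in L-cDC members and 165 CPM in M-cDC members, against 34.6 and 30.2 CPM in resting cDC2 and 11.1 and 8.52 CPM in resting cDC1. It was carried by 68.2% of L-cDC and 57.6% of M-cDC members, against 24.4% and 17.9% of resting cDC2. With cells thinned to 3000 UMIs these shares were 35.5% and 25.8% of members and 12.3% and 8.05% of resting cDC2. Bst2, a membrane protein of pDC that tethers enveloped virus, stood at 554 CPM in L-cDC members and 567 CPM in M-cDC members, against 108 and 96.8 CPM in resting cDC2. Cd209a stood at 640 CPM in L-cDC members and 759 CPM in M-cDC members, against 197 and 270 CPM in resting cDC2, although the resting cDC2 gate itself accepted cells by Cd209a. Over the summed members, genes of the pDC side and Cd209a of the cDC2 side were thus both above resting cDC2 in each library. Cd209a is no independent check of the name, because its level followed Cd209d, a gene of the rule. It stood at 743 CPM in L-cDC members with Cd209d and 122 CPM in those without, and at 822 and 351 CPM in M-cDC members. The resting cDC2 gate also capped the genes summed in the rule, Cd209d among them. How reads were split among these paralogs cannot be checked. Cd200r1 and Bst2 are not independent of the rule either. At a sum of 0, L-cDC and M-cDC barcodes with Tcf4 and no excluded gene had Cd200r1 at 27.7 and 27.3 CPM. At a sum of 10 or more, Cd200r1 stood at 194 and 217 CPM. Bst2 stood at 100 and 108 CPM at a sum of 0 and at 713 and 766 CPM at 10 or more. Axl, a marker of the related cells of human blood, was at 5 UMIs over all L-cDC members and 0 UMIs in M-cDC members.

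Genes of pDC differed in how widely members carried them. Bst2 was carried by 86.0% of L-cDC and 84.8% of M-cDC members, Plac8 by 85.0% and 92.4%, and Ccr9 by 58.9% and 54.5%. Cox6a2 was carried by 9.35% and 3.03%, and Irf8 and Klk1 were also thinly spread. Irf8 was carried by 28 of 107 L-cDC members (26.2%) and 13 of 66 M-cDC members (19.7%), whereas all resting cDC1 of both libraries carried it. Thinned to 3000 UMIs, the shares were 14% and 4.55% of members and 99.2% and 99.4% of resting cDC1. Klk1, a kallikrein known as a pDC marker in mouse, was found in 5 L-cDC members and in none of the M-cDC members, where 0 of 66 cells allows a share of cells with a UMI of up to 4.55% (3 cells of the total) and does not limit the share that expresses it. Among markers of other lineages, T and NK cell genes were near 0 apart from Klrd1, but B cell and monocyte genes were not all. Of 20 T and NK cell genes, 15 were at 0 in L-cDC members and 17 in M-cDC members, Cd3e and Ncr1 among them, and Klrd1 made up 458 of 473 CPM and 486 of 492 CPM of the summed level. Of 18 B and plasma cell genes, 5 were at 0 in L-cDC members and 12 in M-cDC members, and the summed 380 and 388 CPM lay above the 230 and 266 CPM of resting cDC2. Ighm, the immunoglobulin heavy chain that pDC also transcribe, was the larger part of it, at 218 and 251 CPM. Of 26 monocyte and macrophage genes, 8 were at 0 in L-cDC members and 12 in M-cDC members, with summed levels of 2521 and 2144 CPM against 3486 and 2114 CPM in resting cDC2. The part of these transcripts in the results was not tested.

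The members also gathered when the rule's genes were withheld. The 9934 kept barcodes were clustered without the 11 genes of the rule, which gave 26 clusters. A single cluster held 86 of 107 L-cDC members (80.4%) and 49 of 66 M-cDC members (74.2%). Its leading genes were Apod, Cyp7b1, Dab2, Cd200r1, Kdr, Cd209a, Ly6c2, Lefty1, Clec10a, Lifr, Cx3cr1 and Chil5. A second cluster, led by Mgl2, Mmp12, Clec10a, Ccl9, Cd209a and Lyz2, held 18 L-cDC and 11 M-cDC members, and only 4 of the 26 clusters held any. Among the 15 nearest neighbours of a member, 45.5% were members in L-cDC and 44.1% in M-cDC, against 1.32% and 0.722% for other kept cells. The rule barred cells with Ccr7, Xcr1, Mki67, Top2a, Cd79a or Nkg7, which kept members out of many other clusters in advance. The other kept cells include those barred types. The number of clusters with members and these neighbour shares are therefore partly set by the rule and are a description.

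The cluster was wider than the rule. Members were 86 of its 221 L-cDC cells (38.9%) and 49 of its 148 M-cDC cells (33.1%). The other 135 L-cDC and 99 M-cDC cells of the cluster had Tcf4 at 663 and 465 CPM, Cd209d at 734 and 477 CPM and Bst2 at 459 and 351 CPM, and they also had Ccr7 at 160 and 132 CPM and Mki67 at 22.6 and 10.9 CPM. Members inside the cluster stood apart from members outside it. Bst2 stood at 654 CPM in the L-cDC and 678 CPM in the M-cDC members inside it, against 135 and 201 CPM in the 21 L-cDC and 17 M-cDC members outside it. Among members, Ly6c2 was at 0 outside the cluster in both libraries and at 152 and 278 CPM inside it. Sirpa ran the other way, at 112 and 99.0 CPM inside the cluster and 248 and 236 CPM outside it, as did Cd209a at 581 and 740 CPM inside and 889 and 822 CPM outside.

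**Figure D2:**
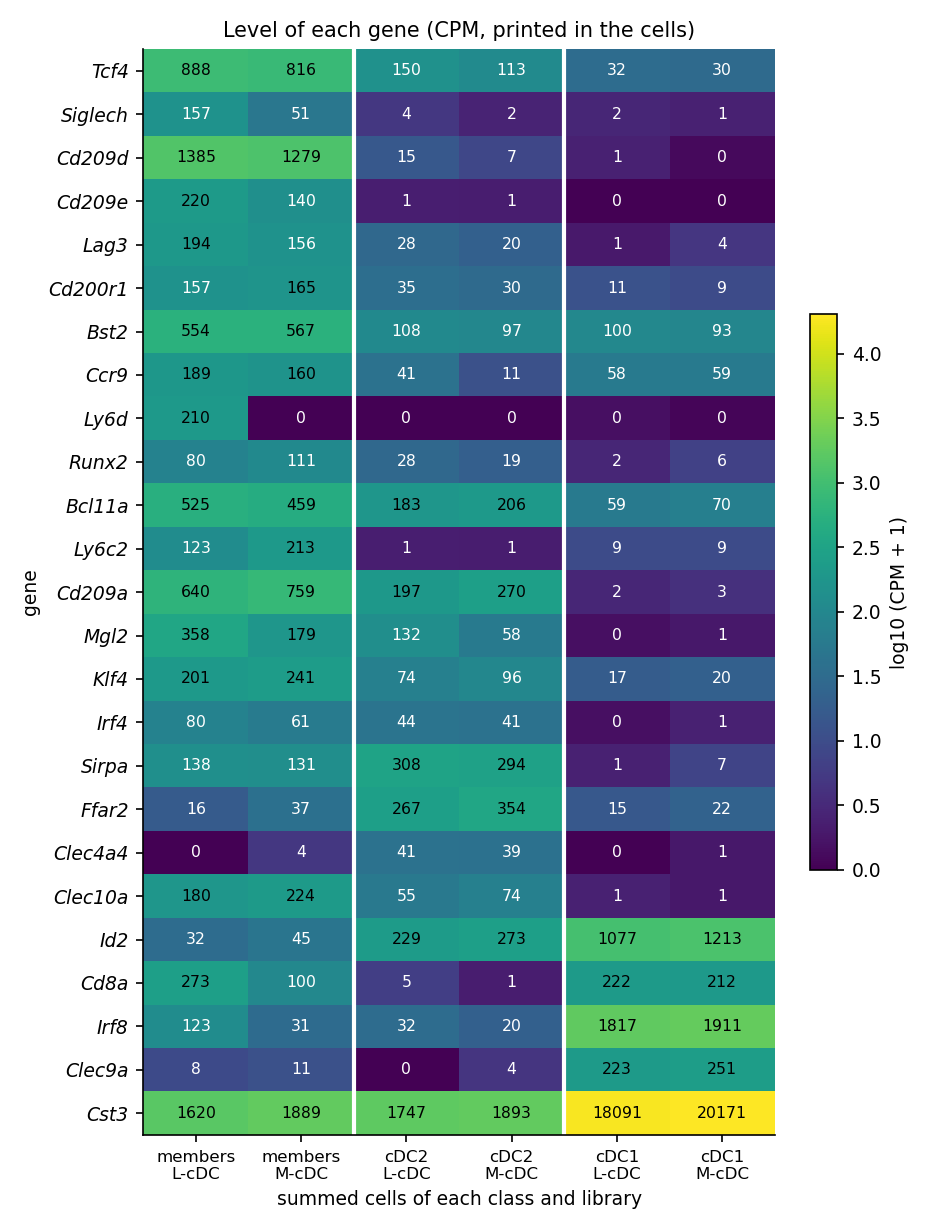
Heat map of the level of each gene in CPM, printed in each cell and coloured by log10 of CPM plus 1, for members, resting cDC2 and resting cDC1 of each library; a printed 0 is a level that rounds to 0. Tcf4, Bst2 and Cd200r1 were highest in members, Sirpa in resting cDC2, and Irf8 and Id2 in resting cDC1.

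Set against resting cDC2 of the same library, members had higher levels of a group of pDC genes and lower levels of Id2 and of several genes of the resting splenic cDC2. Over 4571 genes considered (at least 20 CPM in the higher of the 2 sums and at least 50 UMIs over both), 114 (2.49%) were at least 2-fold higher in both libraries and 137 (3.00%) at least 2-fold lower. As members and cDC2 were gated on measured values of the same cells, these counts are a description. The gate and rule genes among them, 6 higher and 2 lower, are left out of the counts by list that follow. The median log2 ratio over all genes was -0.02 in L-cDC and 0.07 in M-cDC.

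Of 16 pDC genes considered, 7 were higher in members in both libraries and 1 was lower, with a median log2 ratio of 1.21 in L-cDC and 1.03 in M-cDC. Bst2 was 5.15-fold (4.09 to 6.55) higher in L-cDC and 5.86-fold (5.09 to 6.73) higher in M-cDC. Ccr9, the receptor for the gut and thymus chemokine CCL25, was at 189 CPM in L-cDC members and 160 CPM in M-cDC members, against 41.2 and 10.8 CPM in resting cDC2. Runx2, a transcription factor that pDC need to leave the bone marrow, was 2.88-fold (1.80 to 4.83) higher in L-cDC and 5.72-fold (4.15 to 7.88) higher in M-cDC. Bcl11a, a transcription factor required for pDC development, was 2.86-fold and 2.23-fold higher. Plac8, abundant in pDC, reached 1935 CPM in L-cDC members and 2212 CPM in M-cDC members, against 441 and 678 CPM in resting cDC2. Tex2 was 7.99-fold and 13.8-fold higher. Ly6c2, which encodes the Ly6C surface protein of pDC and monocytes, was at 123 CPM in L-cDC members and 213 CPM in M-cDC members, with 1 and 5 UMIs in all resting cDC2. Pld4, a lysosomal nuclease, ran against the others, at 86.7 CPM in L-cDC members and 58.7 CPM in M-cDC members against 225 and 230 CPM in resting cDC2.

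The transcription factors divided. Id2 was 7.11-fold (5.11 to 10.1) lower in L-cDC members and 6.01-fold (4.28 to 8.73) lower in M-cDC members than in resting cDC2, at 32.2 and 45.4 CPM against 229 and 273 CPM. Over 31 factors considered, 4 were higher (Bcl11a, Klf4, Runx1 and Runx2) and 5 lower, with median log2 ratios of 0.10 in L-cDC and 0.27 in M-cDC. Klf4, a factor needed by a branch of cDC2, was at 201 CPM in L-cDC members and 241 CPM in M-cDC members, against 74.5 and 95.8 CPM in resting cDC2. Batf3, which cDC1 need, was 4.22-fold and 3.30-fold lower. Irf1, a factor of the interferon response, was 4.47-fold and 4.34-fold lower. Irf4, a cDC2 factor, was 1.83-fold (1.24 to 2.79) and 1.5-fold (1.06 to 2.09) higher, below the 2-fold mark. Zbtb46, a factor of conventional dendritic cells that pDC lack, was at 51.7 CPM in L-cDC members and 48.0 CPM in M-cDC members, against 46.5 and 57.1 CPM in resting cDC2. Its ratio had intervals that held 1 in both libraries, so Zbtb46 did not set members apart from cDC2 at this depth.

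Genes of cDC2 did not move as a block. Of 13 considered, 2 were higher in members (Clec10a and Klf4) and 2 lower, and the median log2 ratio was 0.11 in L-cDC and 0.45 in M-cDC. Clec10a, a galactose-binding lectin, was 3.31-fold (2.37 to 4.72) higher in L-cDC and 3.05-fold (2.51 to 3.69) higher in M-cDC. Clec4a1, an inhibitory lectin, was 3.15-fold and 3.46-fold lower. Among the gate's own genes Cd209a was 3.25-fold and 2.82-fold higher and Mgl2 2.72-fold and 3.1-fold higher, while Ffar2, a receptor for short-chain fatty acids, was 16.6-fold (10.8 to 26.8) and 9.49-fold (6.54 to 14.3) lower. Clec4a4, the DCIR2 lectin of splenic cDC2, was at 0 UMIs in L-cDC members and 3 UMIs in M-cDC members, against 31 and 160 UMIs in resting cDC2. Members thus carried the Cd209a, Mgl2, Clec10a and Klf4 side of cDC2 and hardly any Clec4a4 or Ffar2. Since the cDC2 gate accepts a cell by any of its 5 genes, part of these differences is set by the gates.

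The genes that most set members apart from resting cDC2 included several outside the pDC and cDC2 lists. Apod, a lipid-binding lipocalin, had 180 UMIs in L-cDC members (126 CPM) and 64 in M-cDC members (85.4 CPM) and none in resting cDC2, which put it at least 31.5-fold and 116-fold higher against a floor of 3 counts per sum. Cyp7b1, an oxysterol hydroxylase, was at 159 CPM in L-cDC members and 152 CPM in M-cDC members, against 9.31 and 2.45 CPM in resting cDC2. The enzyme takes part in making the ligand of Gpr183 (EBI2), an oxysterol receptor that positions cDC2 in the spleen. Gpr183 itself was at 373 CPM in L-cDC members and 318 CPM in M-cDC members, against 136 and 107 CPM in resting cDC2. Dab2, an endocytic adaptor, was 18.4-fold (7.74 to 57.4) and 17.7-fold (11.5 to 28.1) higher. Kdr, a VEGF receptor, was at 95.1 and 65.4 CPM in members and 1.33 and 3.19 CPM in resting cDC2. Cd8a, the co-receptor chain also found on cDC1 and on some pDC, was at 273 CPM in L-cDC members and 100 CPM in M-cDC members, with 4 and 5 UMIs in all resting cDC2. Hpse, an enzyme that cuts heparan sulfate, Rab3il1, Chil5, Tex2 and Lefty1 were also among the 12 genes furthest apart, at 7.78-fold to 12.8-fold higher in L-cDC and 8.09-fold to 31.3-fold higher in M-cDC.

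On the lower side, Pglyrp1, which binds bacterial peptidoglycan, was at 23.1 CPM in L-cDC members and 13.3 CPM in M-cDC members, against 233 and 229 CPM in resting cDC2. Ncf4, a subunit of the phagocyte NADPH oxidase, was 16.9-fold (8.48 to 38.3) and 11-fold (5.55 to 25.7) lower. Bcl2a1b, an anti-apoptotic BCL2 relative with near-identical copies whose reads may have been split, was 5.25-fold and 5.29-fold lower. Rgs1, which dampens chemokine receptor signals, was 6.92-fold and 7.71-fold lower, and Ptpn22, a phosphatase of immune receptor signalling, 5.21-fold and 5.71-fold lower. Ccl5, a chemokine, was at 153 and 112 CPM in members and 589 and 772 CPM in resting cDC2.

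Surface and signalling families were mixed. Of 12 chemokine receptors and other G protein-coupled receptors, 3 were higher and 3 lower. Gpr171 was 5.26-fold and 10.4-fold higher in members. Of 11 siglecs and inhibitory receptors outside the rule, 2 were higher and 3 lower: Cd33, an inhibitory siglec, was 12.4-fold (4.67 to 46.3) and 6.11-fold (3.92 to 9.54) higher, and Siglecg 2.47-fold and 2.50-fold lower. Kit, the stem cell factor receptor, was 3.5-fold and 2.37-fold lower. Il7r was 5.97-fold (3.99 to 9.28) higher in L-cDC members and 3.99-fold (2.73 to 5.78) higher in M-cDC members than in resting cDC2 of the same library. The higher level in members was thus measured among the tdTomato-negative cells too.

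Some machineries held no called genes, while the costimulation and Toll-like receptor lists held genes called lower. None of 19 genes of MHC class I presentation, 36 genes of the endoplasmic reticulum and secretion or 16 lysosomal proteases and inhibitors was called in either direction. Over all genes considered, 2.49% were called higher and 3.00% lower. Lists of this size would hold few called genes at those shares, so the absence of calls does not set these lists apart. In secretory genes, a feature of mature pDC, the median log2 ratio was 0.26 in L-cDC and 0.37 in M-cDC. Of 12 MHC class II and loading genes, H2-DMb1, a chain of the peptide exchanger H2-DM, was called, at 2.33-fold and 3.33-fold higher. Of 12 costimulation and cytokine genes, 3 were lower (25%) and none higher, with medians of -0.95 and -0.90. Of 10 Toll-like receptor genes and adaptors, 2 were lower (20%) and none higher. Both shares lay above the 3.00% of all genes called lower, on lists of few genes.

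**Figure D3:**
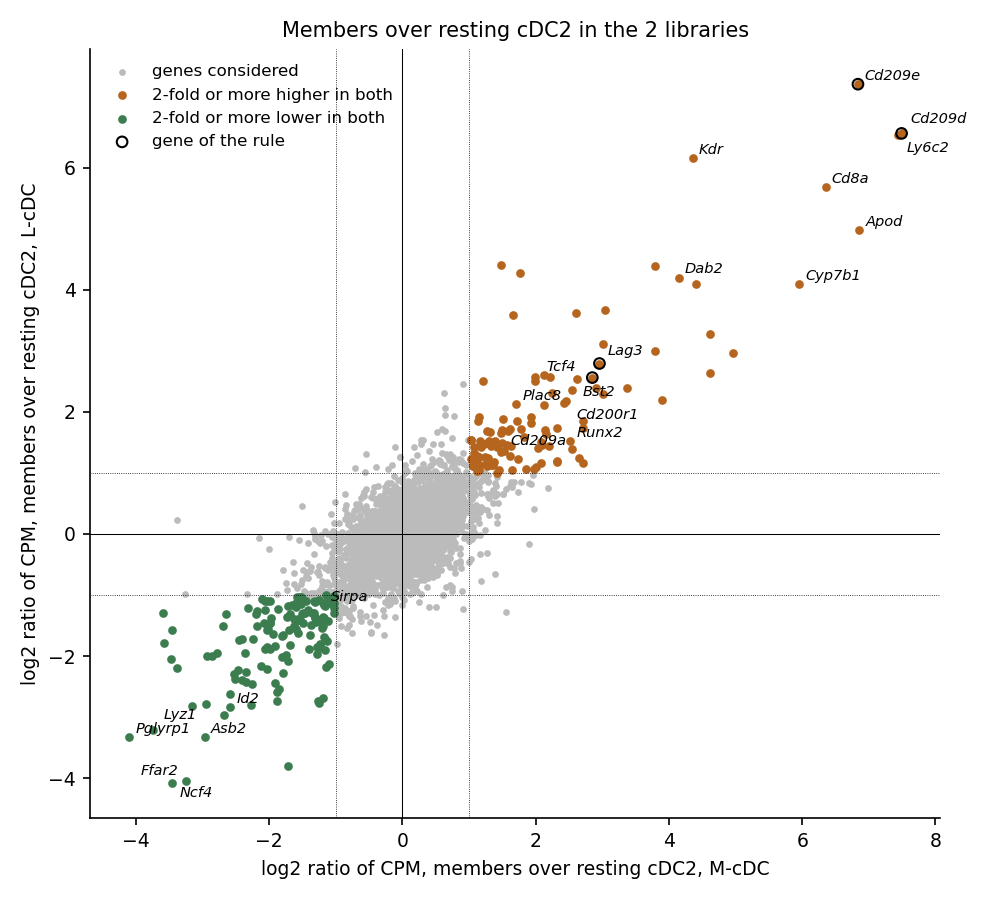
Each point is a gene considered, placed by the log2 ratio of CPM in members over resting cDC2 in M-cDC (horizontal) and in L-cDC (vertical); coloured points are at least 2-fold higher (114) or lower (137) in both, and rings mark genes of the rule. Apod, at 0 in resting cDC2, is drawn against a floor of 3 counts and is a bound, and Siglech is absent because it had under 50 UMIs in the M-cDC sums.

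Set against resting cDC1, members had lower levels of most cDC1 genes. The rule required Xcr1 at 0 and the cDC1 gate required it, so the classes were split on a cDC1 gene in advance. Low levels of genes expressed with Xcr1 are partly set by that choice, and the counts are a description. Over 4981 genes considered, 421 (8.45%) were at least 2-fold higher in both libraries and 281 (5.64%) at least 2-fold lower, with median log2 ratios over all genes of 0.16 in L-cDC and 0.20 in M-cDC. Of 19 cDC1 genes outside the gate, 18 were lower in members and none higher, with medians of -3.88 and -4.74. Irf8, the master factor of cDC1, was 14.8-fold (12.7 to 17.3) lower in L-cDC members and 62.3-fold (41.5 to 98.3) lower in M-cDC members. Of the 176 Irf8 UMIs of L-cDC members, 116 came from 7 cells rich in Ly6d, described below. The 95 L-cDC members without Ly6d had Irf8 at 42.8 CPM, against 1817 CPM in resting cDC1 of L-cDC. Id2 was at 32.2 and 45.4 CPM in members, against 1077 and 1213 CPM in resting cDC1. Cst3, the protease inhibitor cystatin C, was 11.2-fold and 10.7-fold lower, and Ppt1, a lysosomal thioesterase, 26.2-fold and 22.6-fold lower. Rab7b was at 0 UMIs in members of both libraries, at least 124-fold and 67.5-fold lower than the 260 and 270 CPM of resting cDC1. Cd8a was the cDC1 gene not called, at 273 CPM in L-cDC members and 100 CPM in M-cDC members against 222 and 212 CPM in resting cDC1.

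The cDC2 and pDC genes were higher on this side. Of 16 cDC2 genes, 12 were higher in members and 3 lower, with medians of 5.10 and 3.96. Cd209a was at 640 and 759 CPM in members and 1.94 and 2.99 CPM in resting cDC1. Clec10a was at 180 and 224 CPM in members and 1.45 and 0.897 CPM in resting cDC1. Of 20 pDC genes, 13 were higher and 2 lower, with medians of 1.99 and 2.06. Bst2 was 5.56-fold and 6.08-fold higher in members, close to its ratio over resting cDC2. Zeb2, a repressor that pDC and cDC2 development need, was at 331 and 275 CPM in members and 0.967 and 5.38 CPM in resting cDC1. Spib, an Ets factor of pDC, was at 65.7 and 53.4 CPM in members and 0.484 and 2.99 CPM in resting cDC1, but at 46.5 and 33.1 CPM in resting cDC2. Of 16 lysosomal proteases and inhibitors, 10 were higher and 2 lower, with medians of 1.41 and 1.34, whereas none of the 16 considered over resting cDC2 was called. Across 4390 genes outside the gates, log CPM profiles of L-cDC and M-cDC members had a Pearson correlation of 0.967. Members and resting cDC2 had 0.919 in L-cDC and 0.913 in M-cDC, and members and resting cDC1 had 0.832 and 0.840. Genes are not independent replicates and each class differs in depth, so these values only rank likeness.

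Members of L-cDC and M-cDC were then set side by side. Over 4592 genes considered, 156 (3.40%) were at least 1.5-fold higher in L-cDC members with an interval that left out 1, and 307 (6.69%) were lower. The median log2 ratio over all genes was -0.09. With the cell richest in each gene left out of each library, 176 genes were higher and 225 lower, and the median log2 ratio was -0.055. A single cell is a larger share of the 66 M-cDC members than of the 107 L-cDC members. Leaving it out therefore tends to lower the M-cDC sums more. For that reason these counts cannot tell how far the split depended on single cells. Thinned to 3000 UMIs per cell, 123 genes were called, of which 47 were among these 463 and 76 were not. Of the genes the rule used, Siglech was 3.1-fold (2.19 to 4.50) and Cd209e 1.57-fold higher in L-cDC members, past the 1.5-fold mark, while Lag3 was 1.24-fold, Tcf4 1.09-fold (0.987 to 1.20) and Cd209d 1.08-fold that of M-cDC members. A single L-cDC member gave 77 of the 315 Cd209e UMIs of L-cDC members. With the cell richest in Cd209e left out of each library, its ratio was 1.42-fold, below the mark. Of genes outside the rule, Bst2 was 0.978-fold (0.868 to 1.10) and Cd200r1 0.951-fold.

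Of the genes considered, Ly6d, a surface protein of pDC and of lymphoid progenitors, stood furthest apart. It had 301 UMIs (210 CPM) in L-cDC members and none in M-cDC members, at least 52.6-fold higher against the floor of 3 counts. These UMIs came from 12 of 107 L-cDC members (11.2%, 5.93 to 18.8), none of which gave more than 19.6% of them. No Ly6d was found in resting cDC2 of either library, and 1 UMI each in resting cDC1. Of the 12 cells, 11 also carried Siglech, 11 Il7r and 11 Lag3, while 8 carried Cd209d, 8 Cd209a, 7 Irf8, 7 Cd8a and 6 Cox6a2. All 5 members with Klk1 were among them, and all 12 fell in the cluster that held most members. The 12 cells were mixed: 7 had 27 to 59 UMIs of Ly6d and the other 5 had 1 UMI each.

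The 7 cells rich in Ly6d carried most of the pDC transcripts of the 12. Bst2 stood at 3270 CPM in these 7 cells and 749 CPM in the 5 cells with 1 UMI of Ly6d, against 436 CPM in the other 95 L-cDC members. Siglech stood at 2250 and 158 CPM, against 74.1 CPM, and Irf8 at 2231 and 57.6 CPM, against 42.8 CPM. Cox6a2 stood at 904 CPM in the 7 cells, with 1 UMI in the 5, and all 5 Klk1-carrying members were among the 7. Cd209d ran the other way, at 289 CPM in the 7 cells and 1051 CPM in the 5, against 1446 CPM in the other members. Over all 12 cells Plac8 stood at 3863 CPM against 1756 CPM, Mgl2 at 8.24 against 390 CPM and Cd209a at 280 against 674 CPM. The 12 cells had a median of 9812 UMIs, against 13300 in the other L-cDC members, and none had a Scrublet score of 0.25 or more. Their median mitochondrial share was 5.01%, against 3.24%, and 6 of the 12 exceeded 5%, against 6 of 95. Whether the 7 cells belong with the other members or are pDC that entered the sort cannot be told apart in these files, and every ratio of L-cDC over M-cDC members for Ly6d, Irf8, Siglech or Cox6a2 includes them unless it is given without them. With the limit set at 5%, Ly6d was at least 6.15-fold higher in L-cDC members, Irf8 1.39-fold and Siglech 1.79-fold. The part of the mitochondrial share in these differences was not tested further.

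Several differences between the libraries rested on these 12 cells. With members that carry Ly6d left out, a comparison chosen after seeing the data, Irf8 was 1.39-fold higher in L-cDC members in place of 4.01-fold (2.59 to 6.49). Siglech, a gene of the rule, was 1.46-fold in place of 3.1-fold (2.19 to 4.50). Cd8b1, the CD8 beta chain, was 1.51-fold in place of 4.98-fold (2.86 to 9.35). Pltp, a phospholipid transfer protein, was 3.15-fold in place of 17.6-fold (4.67 to 148), a ratio that rests on 2 UMIs in M-cDC members. Ctsl, a lysosomal protease, was 1.20-fold in place of 3.98-fold. Cox6a2, a cytochrome oxidase subunit known in pDC, was 9.26-fold (3.00 to 46.3) higher with these cells and 0.954-fold that of M-cDC members without them, on 3 UMIs in M-cDC members. Ly6c2 was lower in L-cDC members both ways, 1.74-fold with these cells and 2.79-fold without, and 1 cell gave 25% of its UMIs in M-cDC members. The same setting left Cd8a at 2.58-fold, Il7r at 2.77-fold and Bst2 at 0.769-fold.

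Other differences did not rest on the Ly6d-carrying cells. Cd8a, at 273 CPM in L-cDC members and 100 CPM in M-cDC members, was 2.73-fold (2.13 to 3.55) higher. It was carried by 54.2% of L-cDC and 28.8% of M-cDC members, and by 33.6% and 16.7% when thinned. Background in resting cDC2, which lack Cd8a, was 2.44% and 0.940%. In resting cDC1, where Cd8a is a defining gene, L-cDC stood at 1.05-fold the level of M-cDC, and the difference between the ratios was not tested. Il7r, the gene that drives the Cre behind the sort, was at 206 CPM in L-cDC members and 69.4 CPM in M-cDC members, 2.97-fold (2.21 to 4.07) higher, with 57.9% and 34.8% of members carrying it (37.4% and 16.7% thinned). In resting cDC2 the Il7r ratio was 1.99-fold, on 26 UMIs in L-cDC and 71 in M-cDC. In resting cDC1 Il7r had 10 UMIs in L-cDC, 8 of them from 1 cell, and 6 UMIs in M-cDC, which gave 5.39-fold with that cell and 1.09-fold without it.

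Gpm6b, a membrane glycoprotein, was at 70.6 CPM, carried by 41 L-cDC members, and at 15 UMIs, carried by 8 M-cDC members, 3.53-fold (2.04 to 6.54) higher, against 1.01-fold in resting cDC2. Cd4 was 3.36-fold (2.01 to 5.98) higher. Lyz2, lysozyme of myeloid cells, was at 937 CPM in L-cDC members and 318 CPM in M-cDC members, and it was also higher in L-cDC resting cDC2, at 2325 CPM against 1021 CPM. The related Lyz1 was 15.7-fold (4.17 to 133) higher with 2 UMIs in M-cDC members, but a single cell gave 65.0% of its L-cDC UMIs, its reads may be shared with Lyz2, and in resting cDC2 the ratio was 10.9-fold.

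Interferon-stimulated genes were mixed. Of 17 considered, 2 were higher (Ifitm1 and Ly6a) and 5 lower (Ifitm2, Ifitm3, Ifitm6, Irf7 and Phf11b), with a median log2 ratio of -0.30. These were 11.8% higher and 29.4% lower, against 3.40% and 6.69% of all genes considered. Ifitm3, which blocks virus entry, was at 356 CPM in L-cDC members and 979 CPM in M-cDC members, 2.75-fold (2.46 to 3.09) lower. It was carried by 62 of 107 L-cDC and 59 of 66 M-cDC members. The same direction was seen outside the members, at 0.590-fold in resting cDC2 and 0.473-fold in resting cDC1. Ifitm6 was 3.39-fold (2.08 to 5.66) lower, at 18.9 CPM in L-cDC members and 64.0 CPM in M-cDC members, and Ly6i 3.21-fold (1.91 to 5.49) lower. Irf7, which drives type I interferon in pDC, was 2.27-fold lower, although 1 cell gave 44.0% of its UMIs in M-cDC members. Ccr1, a chemokine receptor, was 2.36-fold lower in L-cDC members while it was 1.81-fold higher in L-cDC resting cDC2.

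Of 25 pDC genes considered in this comparison, 6 were higher in L-cDC members (Cd4, Cox6a2, Ctsl, Irf8, Ly6a and Ly6d) and 2 lower (Irf7 and Ly6c2), with a median log2 ratio of 0.19. Without the Ly6d-carrying cells Cox6a2, Ctsl, Irf8 and Ly6a (1.21-fold) lay below 1.5-fold, Ly6d is absent by construction, and of the 6 only Cd4 stayed above it, at 3.1-fold. Of 31 transcription factors, 1 was higher (3.23%) and 2 lower (6.45%), near the 3.40% and 6.69% of all genes considered. Of 36 genes of the endoplasmic reticulum and secretion, 1 was higher (2.78%) and none lower. These counts do not set either list apart from other genes.

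**Figure D4:**
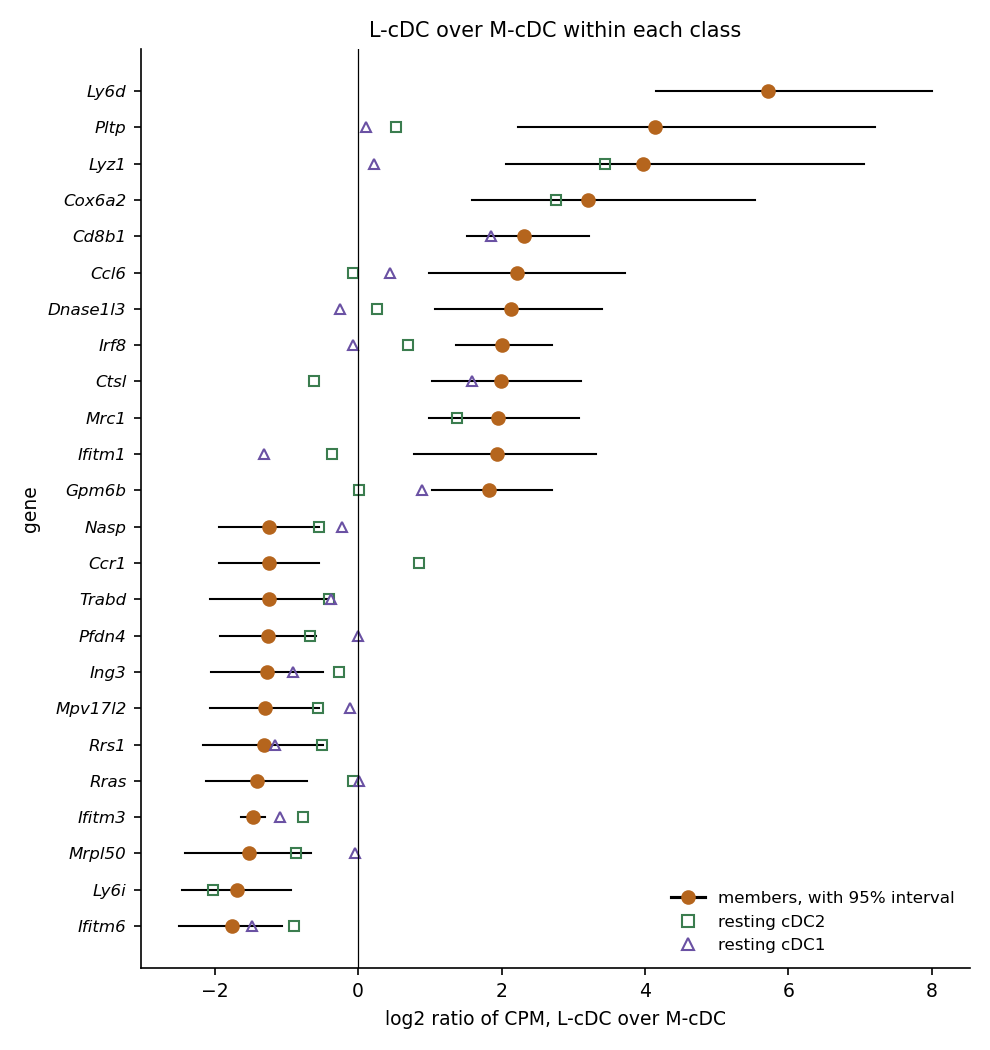
The 12 genes furthest higher and the 12 furthest lower in L-cDC members, as log2 of the ratio of CPM in L-cDC over M-cDC: filled points with 95% counting intervals for members, open squares for resting cDC2 and open triangles for resting cDC1, left out where both libraries were at or under 3 counts. Ly6d, at 0 in M-cDC members, is drawn against a floor of 3 counts and is a bound, and the Ifitm3 interval is narrow and lies below 0 in members with both other classes also below 0.

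Members also varied among themselves within a library. They were split by Siglech and by Cd209d, which the rule used, so these values are a description of the cells chosen. Split by Siglech, the 52 L-cDC members that carried it had Bst2 at 786 CPM and the 55 without at 340 CPM, and the 24 and 42 M-cDC members had 637 and 528 CPM. Ly6c2 stood at 235 CPM with Siglech and 18.9 CPM without it in L-cDC, and at 306 and 162 CPM in M-cDC. Lyz2 ran the other way, at 486 and 1355 CPM in L-cDC and 44.7 and 470 CPM in M-cDC. Runx2 and Plac8 were higher and Mgl2 lower in Siglech-carrying members of both libraries, for Mgl2 in M-cDC by a small margin (157 and 191 CPM). In L-cDC, 11 of the 12 Ly6d-carrying cells were on the Siglech side. Without them, the 41 L-cDC members with Siglech had Bst2 at 563 CPM and the 54 without at 336 CPM, and Ly6c2 stood at 152 and 16.4 CPM. Irf8 stood at 229 CPM with Siglech and 24.3 CPM without it in L-cDC, but at 65.8 and 24.6 CPM with the Ly6d-carrying cells left out, and its M-cDC levels of 14.9 and 39.5 CPM rest on 4 and 19 UMIs.

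Split by Cd209d, the 86 L-cDC members that carried it had Cd209a at 743 CPM and the 21 without at 122 CPM, and the 55 and 11 M-cDC members had 822 and 351 CPM. Mgl2 stood at 421 CPM with Cd209d and 42.1 CPM without it in L-cDC, and at 206 and 0 CPM in M-cDC. Klf4 followed, at 232 and 46.4 CPM in L-cDC and 269 and 60.2 CPM in M-cDC. Bst2 did not run alike in the libraries, at 516 and 746 CPM in L-cDC and 611 and 281 CPM in M-cDC. A member without Cd209d had to reach 3 UMIs through the other genes of the rule, so the rule itself ties the absence of Cd209d to the presence of Siglech or Lag3.

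**Figure D5:**
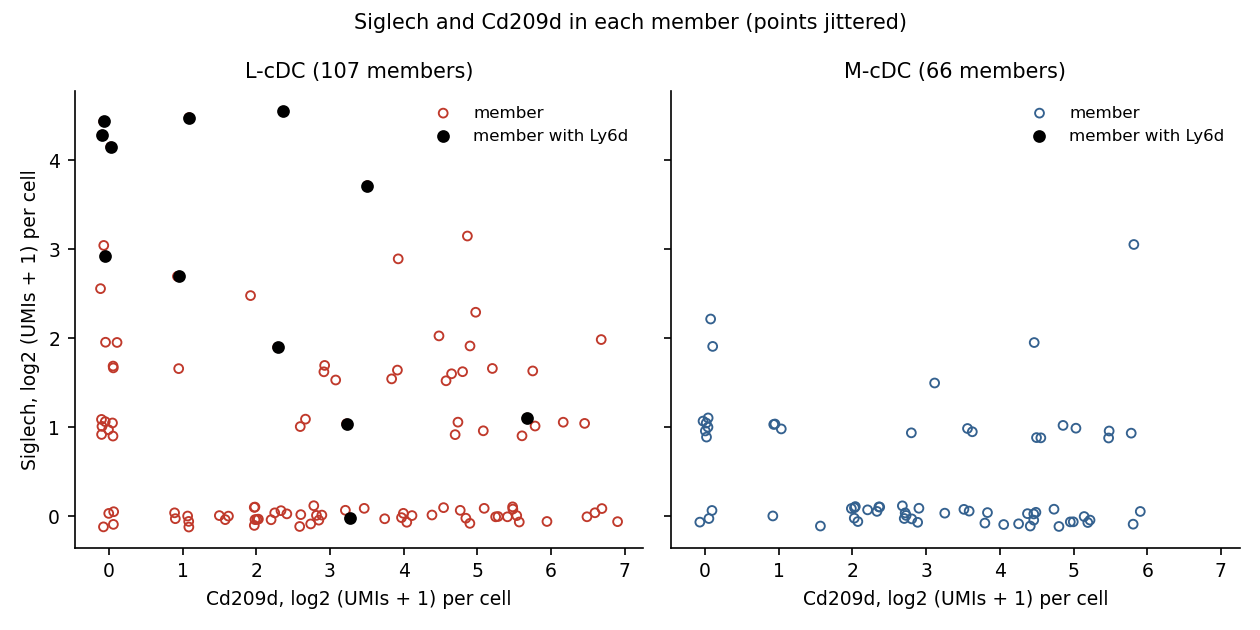
Each circle is a member, placed by log2 of its UMIs plus 1 of Cd209d (horizontal) and Siglech (vertical) with a small jitter, in L-cDC (left) and M-cDC (right); filled points carry Ly6d. Of the 12 Ly6d-carrying L-cDC members 11 have Siglech, and no M-cDC member carries Ly6d.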

How the data were processed

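Single spleen cells had been profiled with the 10x Genomics 3′ kit v3.1 on an MGI instrument, per the labels' protocols, in 1 library per group. The authors deposited raw UMI counts for 31053 genes in each barcode. Cell Ranger 6.1.2 made them, per the file headers, and the genome was GRCm38 (mm10), per the submitters' processing notes. Other settings of that run are not given in the sources used here.

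Kept barcodes had at least 500 genes and at most 10% mitochondrial UMIs. Members were chosen by the rule given in the text, with genes at 0 as well as present, so deeper cells had more chances to pass and to fail it. Resting cDC2 had at least 1 UMI of Sirpa, a sum of at least 2 over Clec4a4, Cd4, Ffar2, Cd209a and Mgl2, at most 2 over the 4 genes of the rule and at most 2 over C1qa, C1qb and C1qc, with the 6 excluded genes at 0. Resting cDC1 had at least 1 UMI of Xcr1, a sum of at least 3 over Xcr1 and Clec9a, and the excluded genes other than Xcr1 at 0. UMIs were summed per class and library and scaled to that sum (CPM). Ratios carry exact conditional binomial 95% intervals and shares exact Clopper-Pearson 95% intervals, and a sum at 0 was set to a floor of 3 counts. These cover counting error only. Members had 1430676 UMIs in all in L-cDC and 749578 in M-cDC.

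Genes were called at 2-fold in both libraries between classes, and at 1.5-fold with an interval leaving out 1 between libraries. The 12 called genes furthest each way, up to 6 genes of each of 25 lists and a fixed set were named, leaving out genes of the rule, unnamed gene models, sex-linked genes and the ribosomal protein, mitochondrial, hemoglobin, immunoglobulin and T cell receptor families. Some genes that this covers are not reported here. Klk1, the leading genes of clusters and the markers of other lineages named at 0 fall outside this and were chosen after their values were seen. So was the split of Ly6d-carrying members by their Ly6d UMIs. Members and lists were chosen with earlier results of these data known. Of 588 list symbols 581 were found. Gate genes of a comparison were left out of its list counts. The calculation was tested on simulated data.

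Doublet-like barcodes (Scrublet score of 0.25 or more) were kept and removed as an alternative, because the automatic threshold marked 1 of 4086 kept L-cDC barcodes. Clustering used 2000 variable genes, 30 principal components, 15 neighbours and Leiden at resolution 1.0. To compare shares of cells, each cell was thinned to 3000 UMIs. Promoters were read from a RefSeq table on GRCm38.p6. The tools were scanpy 1.11.5, igraph 0.11.9 and scikit-learn 1.9.0 for cells, pandas 2.3.3, scipy 1.17.1 and numpy 2.4.6 for sums and intervals, and matplotlib 3.10.9 for figures, under Python 3.11.15.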

Additional observations from a re-analysis of the deposited data

How the results depend on the processing

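No paired analysis was possible because each group had 1 library and the labels carry no replicate numbers. Alternatives varied the cell filters, the thresholds of the rule, doublet removal, depth, the CPM denominator, the gene minimum and the cDC2 gate. Leaving out the Ly6d-carrying members, or members without Cd209d, was chosen after seeing the data. Of the values for member shares and counts of genes called, 55 stayed close and 7 moved. With a sum of 5 or more, members were 1.98% of L-cDC and 0.804% of M-cDC, and with 1 UMI of each excluded gene allowed 3.82% of L-cDC. Thinned to 3000 UMIs per cell, 70 genes were called over resting cDC2 (55 of them also called without thinning), 216 over resting cDC1 (196 also called) and 123 between L-cDC and M-cDC members (47 also called, 76 not). Fewer genes were considered after thinning, 1252 in place of 4592 between libraries, but the cause of the 76 was not tested. At a 50 CPM minimum, 433 genes were called over resting cDC1.

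Of the values for named genes, thinning moved 94 of 251, and the other settings moved 83 of 3224 and reversed 1: Cox6a2 in L-cDC over M-cDC members had a log2 ratio of -0.068 without the Ly6d-carrying members. At a 5% mitochondrial limit, the L-cDC over M-cDC ratio was 1.39-fold for Irf8, 1.79-fold for Siglech, 1.74-fold for Cd8b1, 2.01-fold for Ctsl, 1.99-fold for Cox6a2 and 6.51-fold for Pltp. Of list medians, 1293 stayed close, 164 moved and 10 reversed, all of them the median log2 ratio of C-type lectins over resting cDC1, which was -0.82 in L-cDC and -0.59 in M-cDC. It was 1.14 and 0.98 with a sum of 2 or more, 1.18 and 0.84 with 1 UMI of excluded genes allowed, 0.51 and 0.32 with immunoglobulin, ribosomal protein and mitochondrial genes left out of the CPM denominator, 0.64 and 0.37 at a 5 CPM minimum, and 5.84 and 5.99 at 50 CPM. The list held 10 genes in the main comparison, and the cause was not tested. That CPM denominator moved the median of all genes over resting cDC1 in L-cDC to 0.04, against 0.16. Depth limits genes near 20 CPM in M-cDC members, where this is 15 UMIs.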

Other observations

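Further groups of genes were read in members. Early progenitor and lymphoid genes were described because Il7r is one of them: of 11 considered over resting cDC2, 2 were higher (Bcl11a and Il7r) and 1 lower (Kit), with median log2 ratios of 0.78 in L-cDC and 0.65 in M-cDC. These were 18.2% higher and 9.09% lower, against 2.49% and 3.00% of all genes considered over resting cDC2. Klrd1, the CD94 chain of a natural killer receptor that dendritic cells also transcribe, stood at 458 CPM in L-cDC members and 486 CPM in M-cDC members, against 203 and 283 CPM in resting cDC2 and 17.4 and 24.1 CPM in resting cDC1. Cd7, a co-receptor of lymphoid cells, stood at 247 CPM in L-cDC members and 451 CPM in M-cDC members, against 144 and 148 CPM in resting cDC2 and 2.42 and 4.63 CPM in resting cDC1. Il4i1, an amino acid oxidase, stood at 616 and 415 CPM in members, against 274 and 192 CPM in resting cDC2.

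Cytokine and growth factor receptors were mixed. Of 17 growth factor receptors considered over resting cDC2, 2 were higher (11.8%) and 3 lower (17.6%), with median log2 ratios of 0.05 in both libraries. Over all genes considered, 2.49% were called higher and 3.00% lower in that comparison. Il13ra1, a chain of the interleukin 13 receptor, was 2.69-fold higher in L-cDC and 2.11-fold higher in M-cDC members. Flt3, the receptor that dendritic cell precursors depend on, was 1.87-fold (1.52 to 2.32) and 1.44-fold (1.20 to 1.70) higher. Gfra2, a co-receptor for neurturin, was at 139 CPM in L-cDC members and 57.4 CPM in M-cDC members, against 33.2 and 36.8 CPM in resting cDC2 and 0 and 1.05 CPM in resting cDC1.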
